A study of Mus musculus with 90 samples.

Results

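The 10 genes described here encode the peroxiredoxins Prdx1, Prdx2, Prdx3, Prdx4, Prdx5 and Prdx6, the superoxide dismutases Sod1 and Sod2, thioredoxin (Txn1) and catalase (Cat). They were taken by gene symbol from a table of 24422 mouse genes, and all 10 were in it. All 10 passed the filter on low counts, which 16511 genes passed. The genes were followed across WT and Plag1 knockout oocytes, 2-cell embryos and 8-cell embryos.

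These enzymes remove superoxide and hydrogen peroxide. Superoxide dismutases turn superoxide into hydrogen peroxide, Sod1 in the cytosol and Sod2 in the mitochondrial matrix, and catalase breaks hydrogen peroxide down in peroxisomes. Peroxiredoxins reduce peroxides at a cysteine, which thioredoxin then reduces again with electrons from thioredoxin reductase, except in Prdx4, which is reduced mainly by protein disulfide isomerases, and Prdx6, which uses glutathione. Prdx1 and Prdx2 are mainly cytosolic, Prdx3 is mitochondrial, Prdx4 is held in the endoplasmic reticulum, and Prdx5 is found in mitochondria, peroxisomes and the cytosol. The oocyte stores the transcripts with which the embryo starts. Many of these are cleared by the 2-cell stage, when the embryo's own genome is switched on.

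Single MII oocytes and single whole embryos were profiled by sequencing the 5′ ends of their transcripts, to ask how the loss of maternal PLAG1, a zinc finger transcription factor, changed the transcriptome. WT oocytes and Plag1 KO oocytes were collected unmated, 21 to 23 h after hCG, from sexually mature CD-1 females superovulated with 5 IU of pregnant mare serum gonadotropin and 5 IU of hCG. Embryos came from the same kinds of females mated with WT studs, were cultured in KSOM, and were picked at the 2-cell (2c, 45 to 47 h) or 8-cell (8c, 71 to 73 h) stage. The knockout allele is constitutive, so KO oocytes grew in ovaries and females that lack Plag1 in every cell, and embryos of KO females (matPlag1KO) carry a paternal WT allele. No label gives the female an oocyte or embryo came from, so embryos of 1 female could not be grouped, and p-values measure the spread between libraries only.

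Of 90 libraries 78 were kept: 16 WT and 14 KO oocytes, 11 WT and 11 matPlag1KO 2c embryos, and 15 WT and 11 matPlag1KO 8c embryos. Kept libraries held 222357 to 2502421 gene counts in oocytes, 92475 to 256529 at 2c and 214053 to 696870 at 8c. Levels are given as CPM, counts scaled to the same total in every library, on TMM library sizes. Because each count stands for a 5′ end, CPM was not divided by gene length, and because each library is a whole oocyte or embryo, fewer molecules per cell and fewer cells cannot be told apart. Plag1, the targeted gene, had counts in 16 of 16 WT oocytes (median 24.3 CPM) and in 3 of 14 KO oocytes (highest 3.28 CPM). At 2c the order was the opposite of the genotype names, since 1 of 11 WT embryos held a count, while 9 of 11 embryos labelled matPlag1KO did (median 35.7 CPM). These embryos carry a paternal WT allele, so Plag1 counts in embryos do not check the maternal genotype. At 8c, 5 of 15 embryos were above 0 in WT and 4 of 11 in matPlag1KO.

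The 6 oocyte genes summed to a median of 5803 CPM in WT and 13620 CPM in KO oocytes, and to 69.2 and 115 CPM at 8c. The 14 cumulus and granulosa cell genes summed to group medians of 0 to 4.06 CPM (highest library 35.3 CPM), with 6 to 11 of the 14, Ptx3 and Areg among them, at 0 in all libraries of a group. The 2 haemoglobin genes did not exceed 11.3 CPM together in any library. Libraries were made in 2 pools, libA and libB, each with every stage and genotype.

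The promoters of the first 4 peroxiredoxin genes are shown because Prdx2, Prdx3 and Prdx4 passed the test between genotypes and Prdx1 was, with Prdx2, the main peroxiredoxin of the oocyte. RefSeq promoters, from 250 bases before to 50 after the gene start on GRCm38.p6, matched 9 of the 10 genes, all but Prdx6. Capitals mark matches to the PLAG1 consensus, a GC-rich core and a G-rich cluster set apart by a spacer, on either strand. The windows are chr4:116685349-116685648 (plus strand), chr8:84969372-84969671 (plus strand), chr19:60874489-60874788 (minus strand) and chrX:155338411-155338710 (minus strand).
Prdx1: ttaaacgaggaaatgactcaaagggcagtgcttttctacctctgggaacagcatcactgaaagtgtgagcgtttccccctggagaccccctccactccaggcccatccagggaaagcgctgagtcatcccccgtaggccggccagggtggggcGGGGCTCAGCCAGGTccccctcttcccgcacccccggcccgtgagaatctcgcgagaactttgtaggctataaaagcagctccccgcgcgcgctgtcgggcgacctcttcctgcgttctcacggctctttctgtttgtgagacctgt
Prdx2: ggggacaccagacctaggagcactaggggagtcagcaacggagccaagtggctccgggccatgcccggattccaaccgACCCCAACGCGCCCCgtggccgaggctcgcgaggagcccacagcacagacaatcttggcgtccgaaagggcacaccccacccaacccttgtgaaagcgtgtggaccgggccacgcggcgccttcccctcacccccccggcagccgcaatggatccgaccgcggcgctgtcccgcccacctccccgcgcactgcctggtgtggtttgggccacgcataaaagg
Prdx3: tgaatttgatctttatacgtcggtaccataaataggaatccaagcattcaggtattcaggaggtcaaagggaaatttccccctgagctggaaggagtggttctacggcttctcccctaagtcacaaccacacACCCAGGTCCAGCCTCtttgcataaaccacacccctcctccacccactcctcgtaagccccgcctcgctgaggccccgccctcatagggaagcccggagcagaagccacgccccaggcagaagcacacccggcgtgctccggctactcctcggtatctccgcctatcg
Prdx4: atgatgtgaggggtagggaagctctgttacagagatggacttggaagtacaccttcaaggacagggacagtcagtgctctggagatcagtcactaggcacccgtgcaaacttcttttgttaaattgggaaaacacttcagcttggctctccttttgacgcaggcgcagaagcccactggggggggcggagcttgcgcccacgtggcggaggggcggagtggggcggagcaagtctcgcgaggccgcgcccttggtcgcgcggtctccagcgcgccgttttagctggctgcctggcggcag

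The PLAG1 consensus matched in 7 of the 9 promoters (all but Prdx4 and Sod2) and in 19.2% of the 32851 mouse promoters in the table. It lay at -97 in Prdx1, at -172 in Prdx2 and at -118 in Prdx3, counted from the gene start. The GC box (GGGCGG on either strand) was in 9 of 9 promoters and 35.7% of all promoters, and it can overlap the PLAG1 consensus, as it does in Prdx1. GC content was 57.0% to 68.7% in the 9 promoters, against a median of 52.7% over all promoters. The core of the antioxidant response element (TGACNNNGC), to which the stress factor NRF2 binds, was in the promoters of Prdx1 and Sod1 and in 12.4% of all promoters. TATAAA was in 4 of 9 promoters (13.6% of all) and CCAAT in 4 of 9 (37.4%). These matches describe letters in a 300-base window, and they mark neither binding nor a cause.

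The main peroxiredoxin transcript was not the same in the oocyte and at 8c. In WT oocytes Prdx2 made up 55.1% ± 15.8 (SD, n = 16) and Prdx1 42.3% ± 14.2 of the peroxiredoxin CPM of a library. The order differed by pool, with WT medians of 848.5 CPM (Prdx2) and 1244 CPM (Prdx1) on libA, and 3521 and 1560 CPM on libB. At 2c Prdx2 alone made up 68.9% ± 8.67 (n = 11) and Prdx1 11.8% ± 3.73. At 8c Prdx2 made up 3.59% ± 1.46 (n = 15), and Prdx6 was the main transcript with 46.2% ± 7.48, ahead of Prdx5 (17.8% ± 5.20) and Prdx1 (17.1% ± 5.28). The ranges of the Prdx2 share (1.11% to 6.41% at 8c, 32.1% to 75.5% in oocytes) and of the Prdx6 share (32.2% to 56.9% and 0 to 1.12%) did not overlap between WT oocytes and WT 8c embryos. In KO oocytes (n = 14) Prdx1 made up the larger share, 50.4% ± 14.1, beside 45.4% ± 14.6 for Prdx2. In matPlag1KO embryos Prdx2 stood at 75.3% ± 10.6 at 2c (n = 11) and 1.76% ± 0.771 at 8c (n = 11), and Prdx6 at 46.0% ± 9.63 at 8c. These shares compare counts of 5′ ends, one per transcript molecule.

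**Figure D1:**
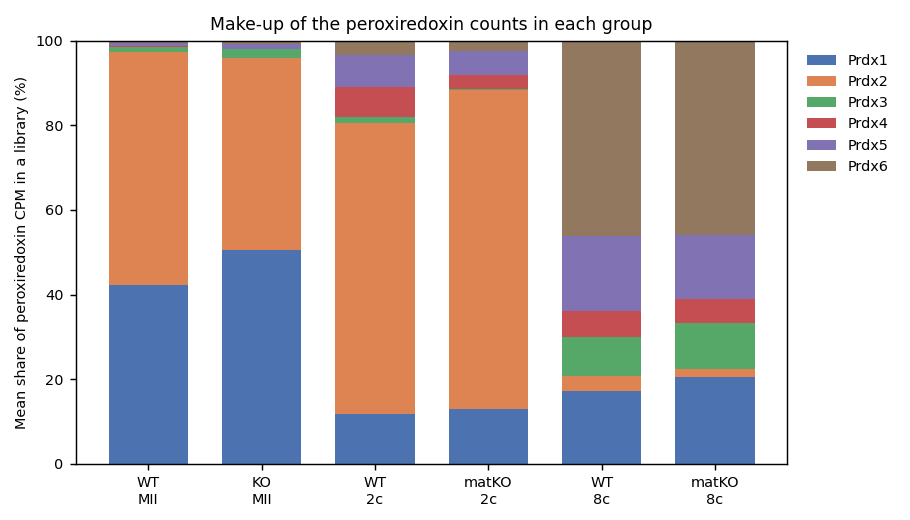
Stacked bars give each peroxiredoxin's mean share (%) of the summed peroxiredoxin CPM of a library, in the 6 groups (KO, oocytes of KO females; matKO, matPlag1KO embryos). Prdx1 and Prdx2 fill almost the whole bar in oocytes, Prdx2 the larger part at 2c, and Prdx6 the largest part at 8c (46.2% in WT).

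Changes between stages were tested with edgeR's quasi-likelihood test on counts scaled to the spike-in RNA added to each library. A gene was called where its Benjamini-Hochberg adjusted p, over all genes tested, was under 0.05. From MII to 2c in WT, 2 of the 10 genes rose, Prdx4 and Prdx5, and 6 fell, Prdx1, Prdx2, Prdx3, Sod1, Sod2 and Txn1, against 14.1% of all genes called higher and 51.3% called lower. In the next step, to 8c, 8 of the 10 genes rose and 1 fell, Prdx2, against 31.9% and 16.2% of all genes. From MII to 8c, 7 rose and 2 fell, Prdx1 and Prdx2, against 27.1% and 43.6%. The median log2 fold change of the 10 genes was -1.58, 2.15 and 1.68 in these steps, beside -1.46, 0.53 and -0.67 over all genes tested. With TMM factors in place of the spike-in totals, which remove the general change in RNA content, the calls over all genes in these 3 comparisons were 4540 higher and 3814 lower, 3475 and 4767, and 5949 and 5996 (2326 and 8474, 5269 and 2681, and 4478 and 7199 with the spike-in totals). Of the 10 genes, TMM factors called 3 higher (Prdx4, Prdx5 and Prdx6) and 1 lower (Prdx1) in the first comparison, 6 and 1 in the next, and 7 and 2 in the last.

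Prdx1, a cytosolic peroxiredoxin, was abundant in oocytes and lower in embryos. In WT it ranged from 509 to 2859 CPM in oocytes (median 1476), from 118 to 672 CPM at 2c (264) and from 78.3 to 744 CPM at 8c (316). The 2 embryo stages overlapped widely, and the lowest oocyte lay below the highest embryos. Per spike-in RNA it fell by 3.77 on the log2 scale from MII to 2c (SE 0.36, adjusted p = 1.91e-15, edgeR) and rose by 1.14 from 2c to 8c (SE 0.32, adjusted p = 0.00232, edgeR), a rise that was 0.21 with TMM factors and 0.82 on libB alone, and called in neither. Prdx1 lies on mm9 chr4:116358204-116372605 on the plus strand, and its first 424 bases are shared with AV051173, a gene on the minus strand (chr4:116357570-116358627). AV051173 was given 95.5% as many counts as Prdx1 over the 78 libraries, and reads of the pair cannot be told apart without strand.

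Prdx2, the other mainly cytosolic peroxiredoxin, had the highest median of the 10 genes in WT oocytes and 2c embryos and a low level at 8c. In WT it ranged from 536 to 4953 CPM in oocytes (median 2308), from 797 to 3283 CPM at 2c (1507) and from 23.4 to 99.8 CPM at 8c (58.8). All 15 WT embryos at 8c lay below all earlier libraries. The change was -1.59 (log2, SE 0.30, adjusted p = 4.75e-06, edgeR) from MII to 2c, near the median of all genes and -0.40 and not called with TMM factors, and -3.85 (SE 0.31, adjusted p = 1.00e-18, edgeR) from 2c to 8c, where most of the 10 genes rose. In WT oocytes its level also differed by pool, with 1207 ± 870 CPM on libA and 3453 ± 863 CPM on libB (SD, n = 8 each), while KO oocytes had 1400 ± 1495 and 1442 ± 935 CPM (n = 7 each).

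The mitochondrial Prdx3 fell from MII to 2c per spike-in RNA and rose by 8c. WT oocytes ranged from 0 to 217 CPM (median 16.4, counts in 11 of 16), 2c embryos from 0 to 57.3 CPM (18.2, counts in 10 of 11) and 8c embryos from 109 to 233 CPM (174, 15 of 15). The 8c range lay above the 2c range. The fall from MII to 2c was 2.34 on the spike-in scale (log2 change -2.34, SE 0.67, adjusted p = 0.00167, edgeR) and the following rise 3.57 (SE 0.70, adjusted p = 1.36e-05, edgeR). The fall was -0.45 and not called with TMM factors, and -0.63 and not called on libB alone.

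Prdx4, which works with protein folding in the endoplasmic reticulum, was near 0 in oocytes and present in all embryos. Counts were found in 6 of 16 WT oocytes (0 to 30.2 CPM, median 0), and in all embryos, with 37.5 to 374 CPM at 2c (median 151) and 59.6 to 179 CPM at 8c (95.5). No oocyte reached the lowest embryo. The rise from MII to 2c was 4.13 (log2, SE 0.51, adjusted p = 3.38e-11, edgeR), against a median of -1.46 over all genes, and from 2c to 8c the change was 0.35 (SE 0.45, adjusted p = 0.543, edgeR) and -0.55, also not called, with TMM factors.

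Prdx5 rose in both steps. WT values were 3.78 to 60.3 CPM in oocytes (median 21.1), 46.0 to 407 CPM at 2c (172) and 174 to 527 CPM at 8c (289), with no overlap between oocytes and 8c. The log2 change was 0.96 (SE 0.39, adjusted p = 0.0253, edgeR) from MII to 2c and 1.82 (SE 0.41, adjusted p = 0.000153, edgeR) from 2c to 8c. On libA alone the first step was 0.05 and not called.

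Prdx6, a 1-cysteine peroxiredoxin that also acts on phospholipids, had the largest rise to 8c of the 10 genes in WT. WT values were 0 to 36.0 CPM in oocytes (median 14.1), 16.4 to 101 CPM at 2c (77.8) and 498 to 1198 CPM at 8c (867). The 8c libraries stood clear of all others. The log2 change was 0.75 (SE 0.36, adjusted p = 0.0631, edgeR) from MII to 2c and 4.46 (SE 0.43, adjusted p = 3.05e-15, edgeR) from 2c to 8c, and the first step was called with TMM factors (2.36) and on libB alone (1.27). Prdx6b, a retrocopy of Prdx6, had no count in any library.

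**Figure D2:**
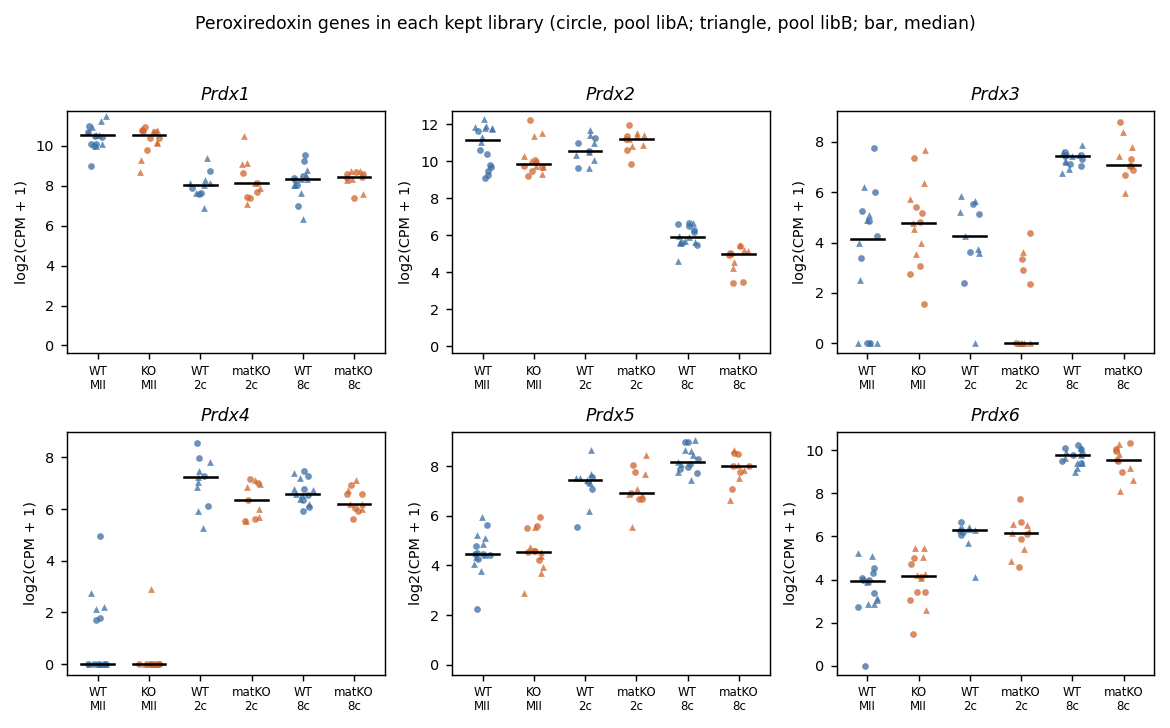
Each point is the log2(CPM + 1) of 1 kept library for 1 peroxiredoxin gene, in the 6 groups (blue, WT; orange, KO oocytes or matPlag1KO embryos; circles, libA; triangles, libB; bars, medians). Prdx2 drops at 8c (58.8 CPM in WT), Prdx4 is at 0 in most oocytes, and Prdx6 is highest at 8c (867 CPM in WT).

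Both dismutases fell from the oocyte to 2c per spike-in RNA and rose again by 8c. Sod1, the copper and zinc enzyme, ranged from 0 to 750.0 CPM in WT oocytes (median 72.2), from 28.2 to 139 CPM at 2c (87.4) and from 71.5 to 338 CPM at 8c (119.9). Sod2, the manganese enzyme, ranged from 24.9 to 161 CPM in WT oocytes (96.3), from 11.3 to 142 CPM at 2c (74.7) and from 104 to 518 CPM at 8c (198). All stages of both genes overlapped in CPM. The log2 change per spike-in RNA was -2.29 (SE 0.53, adjusted p = 0.000121, edgeR) for Sod1 and -1.58 (SE 0.33, adjusted p = 2.89e-05, edgeR) for Sod2 from MII to 2c. With TMM factors these were -1.02 and -0.25, and neither was called. From 2c to 8c the changes were 1.69 (SE 0.52, adjusted p = 0.00502, edgeR) and 2.49 (SE 0.35, adjusted p = 3.64e-09, edgeR). That of Sod1 was 0.80 and not called with TMM factors. Over the whole course Sod2 rose by 0.91 (SE 0.29, adjusted p = 0.00357, edgeR), which was 0.70 and not called on libA alone, and Sod1 changed by -0.60 (SE 0.44, adjusted p = 0.218, edgeR).

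Catalase was at the edge of detection. It had counts in 6 of 16 WT oocytes (at most 5.81 CPM), 1 of 11 WT 2c embryos (11.5 CPM) and 9 of 15 WT 8c embryos (median 4.78, highest 27.3 CPM), 8, 2 and 44 counts in all. The rise from 2c to 8c was called (log2 3.08, SE 0.85, adjusted p = 0.00167, edgeR), but it rested on these few counts, and on libA alone it was 1.88 and not called. From MII to 2c the change was -0.96 (SE 0.82, adjusted p = 0.299, edgeR).

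Txn1, the electron donor of most peroxiredoxins, was highest at 8c. WT values were 0 to 162 CPM in oocytes (median 20.4), 27.3 to 90.1 CPM at 2c (46.9) and 122 to 991 CPM at 8c (245). Every 8c embryo lay above every 2c embryo. The rise from 2c to 8c was 3.77 (log2, SE 0.52, adjusted p = 2.54e-09, edgeR). From MII to 2c Txn1 was called lower with spike-in scaling (-1.58, SE 0.47, adjusted p = 0.00265, edgeR), but the sign turned with TMM factors (0.13) and on libB alone (0.98). WT oocytes had 77.9 ± 57.9 CPM of Txn1 on libA and 11.7 ± 5.80 CPM on libB (SD, n = 8 each), and KO oocytes 86.1 ± 37.0 and 74.8 ± 51.6 CPM (n = 7 each).

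**Figure D3:**
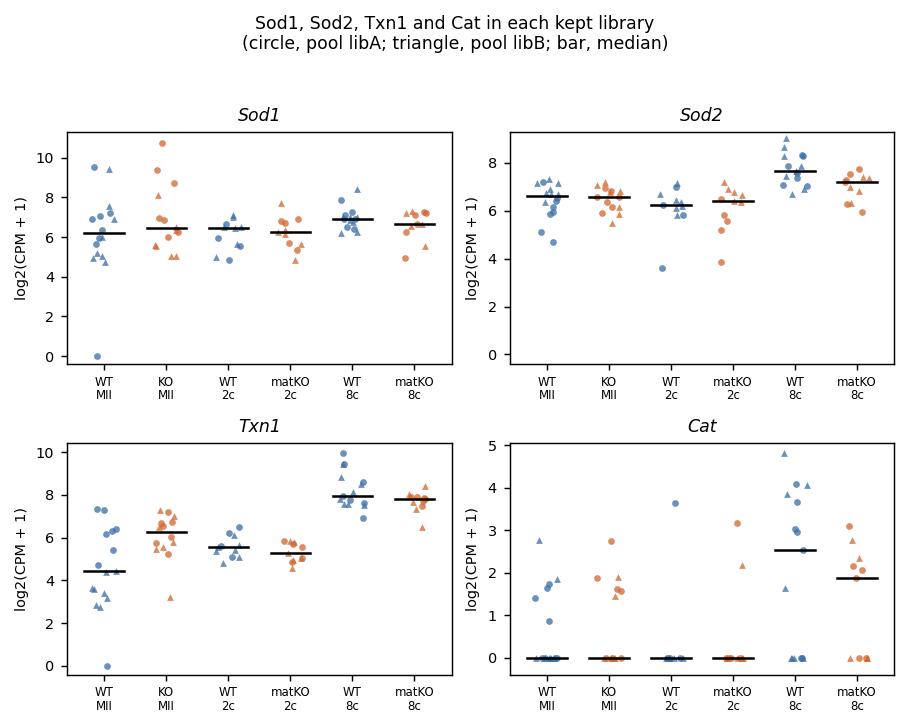
Each point is the log2(CPM + 1) of Sod1, Sod2, Txn1 or Cat in 1 kept library, in the 6 groups (blue, WT; orange, KO oocytes or matPlag1KO embryos; circles, libA; triangles, libB; bars, medians). Txn1 and Sod2 are highest at 8c (WT medians 245 and 198 CPM), and Txn1 in WT oocytes is low on libB (11.7 CPM).

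In the knockout series the same tests called 1 of the 10 genes higher and 7 lower from MII to 2c (13.5% and 50.3% of all genes), 5 higher and 1 lower from 2c to 8c (29.1% and 19.5%), and 3 higher and 3 lower from MII to 8c (24.1% and 45.2%). Prdx4 rose by 5.54 (SE 0.63, adjusted p = 2.11e-12, edgeR) from MII to 2c, against 4 counts in 1 of 14 KO oocytes, so that the fitted size rests on few counts. Prdx6 rose by 4.24 from 2c to 8c (SE 0.43, adjusted p = 4.02e-14, edgeR) and Prdx2 fell by 5.47 (log2 -5.47, SE 0.38, adjusted p = 8.73e-22, edgeR). Prdx3 changed by -5.28 from MII to 2c (SE 0.82, adjusted p = 4.22e-08, edgeR) and by 5.94 from 2c to 8c (SE 0.84, adjusted p = 6.09e-09, edgeR). Both sizes rest on 11 Prdx3 counts in all in the matPlag1KO 2c embryos. With TMM factors the Prdx3 changes were -3.36 and 5.21. Prdx2 changed by -0.99 from MII to 2c (SE 0.30, adjusted p = 0.00323, edgeR), and this sign turned to 0.72 with TMM factors. With TMM factors the calls over all genes in the knockout series were 4799 higher and 3192 lower, 3501 and 5008, and 5708 and 5617 (2231 and 8306, 4812 and 3213, and 3983 and 7458 with the spike-in totals). Of the 10 genes they called 4 higher (Prdx2, Prdx4, Prdx5 and Prdx6) and 4 lower (Prdx1, Prdx3, Sod1 and Txn1), then 4 and 1, and then 5 and 3.

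**Figure D4:**
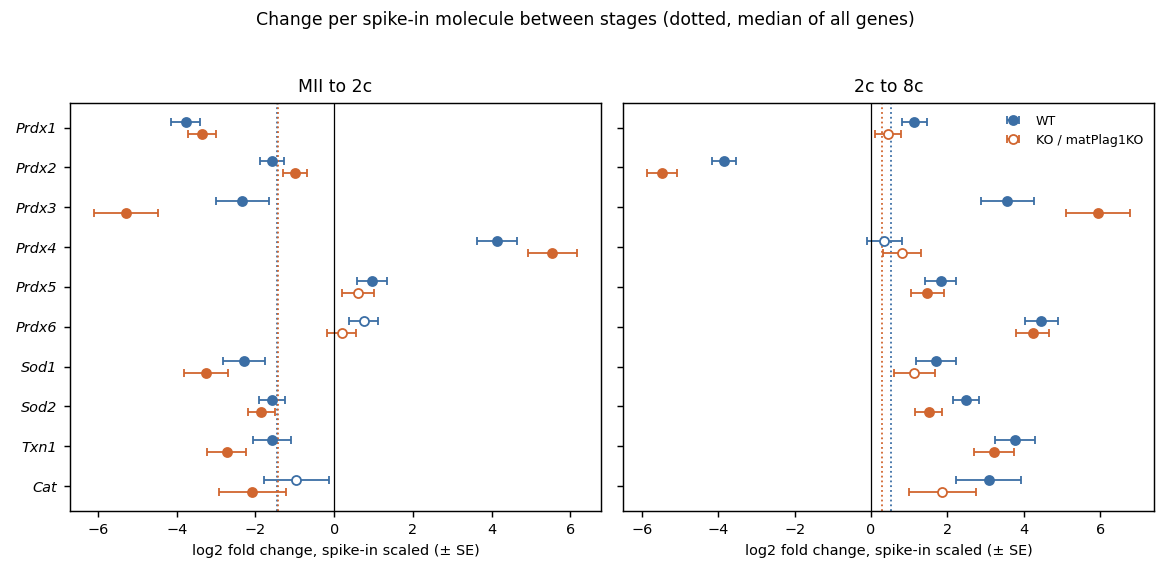
Points are log2 fold changes per spike-in RNA with their SE (bars) for the steps MII to 2c (left) and 2c to 8c (right), in WT (blue) and in KO oocytes and matPlag1KO embryos (orange). Filled points passed the adjusted p of 0.05, and dotted lines give the median of all genes (-1.46 and 0.53 in WT). Prdx4 rises in the first step while Prdx1 falls most in WT (-3.77), and Prdx2 alone lies below 0 in the second.

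For the 4 most abundant members, the genes with the most similar pattern were sought among 3326 genes with a mean of at least 50 CPM, by Pearson correlation of log2 CPM over the 78 libraries. These libraries share stages, pools and depth, so the values are descriptions. Prdx2 was nearest to Knstrn (0.97), Tcl1b4 (0.95) and Omt2b (0.94), and Prdx1, after AV051173, to Pfdn4 and Sec61b (0.88 each). Prdx6 was nearest to Cox7c, Rpl36a and Rps16 (0.94 each), and the genes most like Prdx5 included Rpl12 (0.92) and Set (0.91). Within groups these correlations, AV051173 aside, were 0.31 to 0.65.

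Between genotypes, 1 of the 10 genes was called at each stage, a different peroxiredoxin each time and lower without maternal Plag1 each time. The test was edgeR's on TMM-scaled counts with all 6 groups in 1 fit. The 3 adjusted p-values lay between 0.0477 and 0.04997, and each call was lost under several alternatives. At an unadjusted p under 0.05 there were 3 of the 10 genes at MII, 2 at 2c and 3 at 8c. Of all 16511 genes there were 1690, 3380 and 2363. DESeq2 called 1, 1 and 0 of the 10 genes, all lower, beside 70, 877 and 270 of all genes. The median log2 fold change of the 10 genes was 0.25 at MII, -0.05 at 2c and -0.35 at 8c, beside 0, 0.12 and 0 over all genes.

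In oocytes the called gene was Prdx4, with 1 of 10 genes lower and 0 higher, against 0.472% and 0.309% of all genes called. Counts were found in 6 of 16 WT oocytes (median 0, highest 30.2 CPM, 26 counts in all) and in 1 of 14 KO oocytes (6.57 CPM, 4 counts). Both medians were 0, and the ranges overlapped. The log2 fold change was -2.22 (SE 0.60, adjusted p = 0.04997, edgeR). The call held in 11 of 30 refits that each left out 1 oocyte, with values from -3.48 without KO replicate 11, the only KO oocyte with counts, to -1.18 (adjusted p = 0.418, edgeR) without WT replicate 2, the highest WT oocyte. On libA the fold change was -4.07 (adjusted p = 0.0274, edgeR) and on libB -0.64 (adjusted p = 0.801, edgeR). Oocytes alone were also fitted with a block for the position label shared by the pools and a pool term. In that fit Prdx4 was not called, while Prdx2 was called lower and Txn1 higher. Of all 12978 genes tested in it, 153 were called lower and 639 higher.

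The other members were not called in oocytes in this fit. Prdx2 had a median of 2308 CPM in WT and 928 CPM in KO oocytes (range 577 to 4771), with 11 of 14 KO oocytes below the WT median, and a log2 fold change of -0.71 (SE 0.28, adjusted p = 0.286, edgeR). Txn1 had medians of 20.4 and 76.5 CPM, with 13 of 14 KO oocytes above the WT median, and a log2 fold change of 0.80 (SE 0.34, adjusted p = 0.348, edgeR). For both genes the pools gave different values. Prdx2 had 0.28 on libA (adjusted p = 0.875, edgeR) and -1.27 on libB (adjusted p = 0.0129, edgeR), and Txn1 0.17 on libA (adjusted p = 0.979, edgeR) and 2.65 on libB (adjusted p = 2.55e-05, edgeR). Prdx1, Prdx3, Prdx5, Prdx6, Sod1, Sod2 and Cat had log2 fold changes from -0.14 to 0.78 with adjusted p-values from 0.553 to 1 (edgeR). The 6 oocyte genes summed to 4168 to 22780 CPM in WT and 4224 to 18450 CPM in KO oocytes, and 0 of the 6 were called by edgeR. Their part in these values was not tested.

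At 2c the called gene was Prdx3, with 1 of 10 genes lower and 0 higher in embryos labelled matPlag1KO, against 2.62% and 2.30% of all genes. WT embryos ranged from 0 to 57.3 CPM (median 18.2, 51 counts in all) and embryos labelled matPlag1KO from 0 to 20.1 CPM (median 0, 11 counts). Counts were found in 10 of 11 WT and 5 of 11 of the other embryos, and 10 of these 11 lay below the WT median. The log2 fold change was -2.38 (SE 0.76, adjusted p = 0.0496, edgeR). It was -1.60 on libA (adjusted p = 0.659, edgeR) and -3.46 on libB (adjusted p = 0.0318, edgeR). The call held in 6 of 22 refits that each left out 1 embryo, with values from -2.76 (without matPlag1KO replicate 4) to -2.20 (without WT replicate 9) and adjusted p-values from 0.0252 to 0.0939 (edgeR).

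Prdx4 had medians of 151 CPM in WT and 81.2 CPM (range 45.1 to 141) in embryos labelled matPlag1KO, all 11 of which lay below the WT median. Its log2 fold change of -0.83 (SE 0.41, adjusted p = 0.221, edgeR) did not pass the test. Prdx2 had medians of 1507 and 2340 CPM, with 10 of 11 embryos labelled matPlag1KO above the WT median and a log2 fold change of 0.41 (SE 0.32, adjusted p = 0.495, edgeR). Sod1, Sod2, Txn1, Cat, Prdx1, Prdx5 and Prdx6 had log2 fold changes from -0.30 to 0.47 with adjusted p-values from 0.371 to 1 (edgeR). Markers moved with this contrast too. The 5 genes of the 2-cell program summed to a median of 203 CPM (range 83.3 to 1097) in WT and 567 CPM (254 to 1657) in embryos labelled matPlag1KO, 1 of the 5 (Tdpoz4) called higher, and the 6 oocyte genes to 3332 CPM (1485 to 6551) and 4760 CPM (2337 to 8608), 1 of the 6 (Bmp15) called higher. Their part in the result was not tested.

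At 8c the called gene was Prdx2, with 1 of 10 genes lower and 0 higher in matPlag1KO embryos, against 0.527% and 1.21% of all genes. Of the 10 genes, Prdx2 alone fell from 2c to 8c per spike-in RNA, and it did so in both series. WT embryos ranged from 23.4 to 99.8 CPM (mean 64.0 ± 23.8, n = 15) and matPlag1KO embryos from 9.50 to 42.6 CPM (27.7 ± 11.4, n = 11). All 11 matPlag1KO embryos lay below the WT median, and 14 of 15 WT embryos lay above the highest matPlag1KO embryo, so that the groups overlapped through 1 WT embryo only. The log2 fold change was -1.17 (SE 0.34, adjusted p = 0.0477, edgeR). It was -1.55 on libA (adjusted p = 0.362, edgeR) and -0.81 on libB (adjusted p = 0.454, edgeR). In both pools WT and matPlag1KO embryos at 8c held different position labels, so genotype and position cannot be told apart. The call held in 6 of 26 refits that each left out 1 embryo, with values from -1.27 (without matPlag1KO replicate 11) to -1.09 (without matPlag1KO replicate 3) and adjusted p-values from 0.0386 to 0.0864 (edgeR).

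Sod2, Txn1 and Cat had negative log2 fold changes at 8c that did not pass the test. Sod2 had medians of 198 CPM in WT and 148 CPM (range 60.4 to 212) in matPlag1KO embryos, with a log2 fold change of -0.80 (SE 0.28, adjusted p = 0.126, edgeR). Txn1 had medians of 245 and 227 CPM and a log2 fold change of -0.75 (SE 0.37, adjusted p = 0.343, edgeR), and Cat had -1.32 (SE 0.71, adjusted p = 0.386, edgeR) with 44 counts in WT and 11 in matPlag1KO embryos. Prdx6, the main peroxiredoxin at this stage, had 846 ± 210 CPM in WT and 791 ± 335 CPM in matPlag1KO embryos (log2 fold change -0.10, SE 0.29, adjusted p = 0.965, edgeR). Prdx1, Prdx3, Prdx4, Prdx5 and Sod1 had log2 fold changes from -0.38 to 0.16. The 7 genes of the 8-cell program summed to medians of 1890 CPM (range 805 to 3543) in WT and 747 CPM (297 to 2906) in matPlag1KO embryos. Of these, 3 of 7 were called lower (Cdx2, Krt8 and Krt18). Of the 6 oocyte genes Zp1 was called lower, while 4 of the 6 had positive log2 fold changes. The 6 oocyte genes summed to medians of 69.2 CPM in WT and 115 CPM in matPlag1KO embryos. Their part in these values was not tested.

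**Figure D5:**
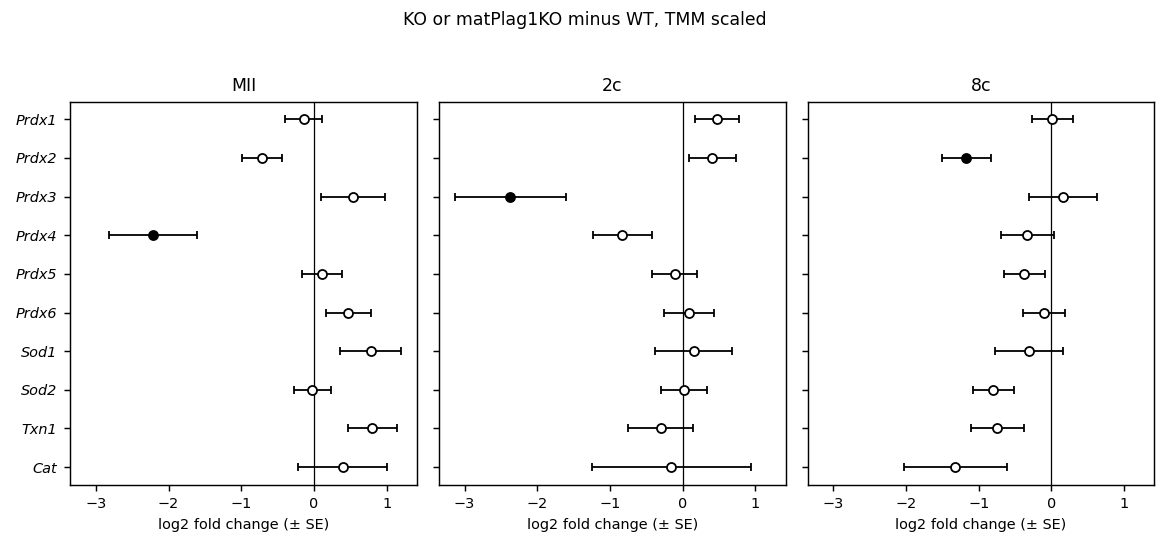
Points are log2 fold changes (TMM scaled) with their SE (bars) of KO oocytes, or of embryos labelled matPlag1KO, against WT at MII, 2c and 8c. The filled points, Prdx4 at MII (-2.22), Prdx3 at 2c (-2.38) and Prdx2 at 8c (-1.17), passed the adjusted p of 0.05.

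Whether a genotype difference itself differed between stages was tested by an interaction contrast in the same fit. The comparisons share the 2c libraries. Between 2c and MII, 0 of the 10 genes were called higher and 1 lower, against 1.62% and 1.68% of all genes. This was Prdx3, whose genotype difference was 0.54 in oocytes and -2.38 at 2c (interaction -2.91, SE 0.88, adjusted p = 0.0444, edgeR). With median-ratio factors Prdx3 was not called in this contrast (-2.73, adjusted p = 0.0570, edgeR), while Prdx2 was (1.41, adjusted p = 0.0422, edgeR). Between 2c and 8c, 1 was called higher and 0 lower, against 1.17% and 1.13%. This was Prdx2, whose genotype difference was 0.41 at 2c and -1.17 at 8c (interaction 1.58, SE 0.47, adjusted p = 0.0466, edgeR). For Prdx4 the genotype differences of -2.22 in oocytes and -0.83 at 2c gave an interaction of 1.38 (SE 0.62, adjusted p = 0.213, edgeR).

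Scaling moved the split of all genes called between genotypes. With the spike-in totals in place of TMM factors, the calls were 97 higher and 40 lower at MII, 191 and 94 at 2c, and 91 and 15 at 8c (51 and 78, 379 and 433, and 200 and 87 with TMM factors), and over all genes the median change was 0.30, 0.28 and 0 (log2), where TMM factors gave 0, 0.12 and 0. With DESeq2 they were 28 and 42, 555 and 322, and 218 and 52, and with median-ratio factors 41 and 79, 721 and 273, and 238 and 57. For the interactions the spike-in totals gave 111 and 201 (2c against MII) and 61 and 31 (2c against 8c), where TMM factors gave 268 and 278, and 193 and 187. For 2c against MII DESeq2 gave 347 and 189 and median-ratio factors 434 and 177, and for 2c against 8c median-ratio factors gave 232 and 145. Prdx4 at MII, Prdx3 at 2c and Prdx2 at 8c kept their direction under all of these, at -2.11, -2.16 and -1.06 with the spike-in totals.

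Of 49 other antioxidant genes in 7 lists (thioredoxin system, glutathione peroxidases, glutathione synthesis and reduction, NRF2 and its targets, sestrins and methionine sulfoxide reductases, peroxisomal import of catalase, and the dismutase chaperone with the extracellular dismutase), 47 were tested. None was called between genotypes in oocytes, 1 was lower at 2c and 1 was lower at 8c, and 0 were higher at any of the stages (edgeR). The share of the 47 genes called lower was 2.13% at 2c, near the 2.62% of all genes, and 2.13% at 8c, where it was 0.527% of all genes. At an unadjusted p under 0.05 there were 5, 12 and 10 of the 47, beside 1690, 3380 and 2363 of all 16511 genes. DESeq2 called 0 at MII, 4 at 2c (3 of them higher) and 2 at 8c (1 of them higher). Over all genes it called 70, 877 and 270. The gene at 2c was Glrx3, a cytosolic glutaredoxin, with 5.75 to 78.1 CPM in WT (median 55.5) and 0 to 60.2 CPM in embryos labelled matPlag1KO (median 8.16), and a log2 fold change of -1.73 (SE 0.47, adjusted p = 0.0195, edgeR). The gene at 8c was Nfe2l2, which encodes NRF2, with 0 to 97.7 CPM in WT (median 33.4) and 0 to 38.5 CPM in matPlag1KO embryos (median 8.05), and a log2 fold change of -1.55 (SE 0.44, adjusted p = 0.0470, edgeR). The ranges of both genes overlapped between genotypes.

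Between stages in WT, 11 of the 47 genes rose and 25 fell from MII to 2c (23.4% and 53.2%, beside 14.1% and 51.3% of all genes). In the next step 21 rose and 8 fell (44.7% and 17.0%, beside 31.9% and 16.2%). Txnrd1, the cytosolic thioredoxin reductase, had medians of 6.49, 0 and 11.1 CPM at MII, 2c and 8c, with 3 counts in all at 2c (3 of 11 embryos), and log2 changes per spike-in RNA of -3.93 (SE 0.80, adjusted p = 1.68e-05, edgeR) and then 3.44 (SE 0.81, adjusted p = 0.000231, edgeR). Txnip, which binds and blocks thioredoxin, fell in both steps, by 6.33 (log2 -6.33, SE 0.58, adjusted p = 2.81e-16, edgeR) and 2.18 (log2 -2.18, SE 0.53, adjusted p = 0.000388, edgeR). Gpx4, the peroxidase for lipid hydroperoxides, rose in both, by 1.94 (SE 0.44, adjusted p = 8.95e-05, edgeR) and 2.52 (SE 0.48, adjusted p = 7.66e-06, edgeR). Srxn1, which repairs overoxidised peroxiredoxins, had counts in 1 of 16 WT oocytes, 2 of 11 WT 2c embryos and 6 of 15 WT 8c embryos, at most 13.5 CPM.

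On mm9 the other members lie at chr8:87493521-87498709 (Prdx2, plus strand), chr19:60939969-60950441 (Prdx3, minus), chrX:151758461-151773003 (Prdx4, minus), chr19:6981309-6984135 (Prdx5, minus), chr1:163170243-163181341 (Prdx6, minus), chr16:90220987-90226569 (Sod1, plus), chr17:13200705-13210985 (Sod2, plus), chr4:57956245-57969283 (Txn1, minus) and chr2:103294061-103325310 (Cat, minus). None of these 9 genes overlapped another of the counted genes.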

How the data were processed

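Single oocytes and embryos were profiled by a modified STRT protocol (5′ ends, molecular identifiers, ERCC spike-ins) in 90 libraries. The authors joined the identifiers, mapped the reads to mm9 with TopHat and counted them per UCSC gene with HOMER. Tool versions are not given in the sources used here. The deposited values are raw counts of 24422 genes and 92 spike-ins, with no normalization, and every column was matched to a sample title.

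Libraries with a median CPM under 1 (over genes with 1 CPM in 5 libraries) were left out, 12 of 90. Genes reaching 1 CPM in 5 or more kept libraries were fitted in edgeR 4.0.16 (R 4.3.3), all 6 groups together, with the quasi-likelihood test and Benjamini-Hochberg adjustment over 16511 genes at 0.05. Comparisons of genotypes used TMM factors, and comparisons of stages used spike-in totals as library sizes, as in the study's methods. The fits were also run on simulated counts that held no pool or position effects. These runs therefore do not bear on the differences between pools. Among kept libraries of the same group, none was a copy of another. Libraries of different groups were not compared in this way.

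The members and lists were chosen with earlier results of these data known. The named genes are the 10 members, the genes most like the abundant members, the other listed antioxidant genes called between genotypes, and the markers called. Txnrd1, Txnip, Gpx4 and Srxn1 were named for their roles beside the members, after their values were seen. Alternatives covered the test (DESeq2 1.42.0), scaling, filter, libraries kept, depth, pool and position. Refits without each library in turn were added after seeing the data. Gene positions are those given with the deposited counts (mm9), and promoters are from RefSeq (GRCm38.p6).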

Additional observations from a re-analysis of the deposited data

Results flagged for a closer look

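For 6 of 57 tested antioxidant genes (the 10 members and 47 others) the genotype difference itself differed between stages by an interaction test in edgeR (adjusted p under 0.05, log2 scale). Of all genes, 1.62% were called higher and 1.68% lower between 2c and MII, and 1.17% and 1.13% between 2c and 8c. Between 2c and MII these were Prdx3 (-2.91, adjusted p = 0.0444), Gpx4 (-2.37, adjusted p = 0.00837), Glrx3 (-2.59, adjusted p = 0.00642) and Taldo1 (-2.07, adjusted p = 0.0378), each with a lower genotype difference at 2c than in oocytes. Gpx4 is the peroxidase for lipid hydroperoxides, Glrx3 a cytosolic glutaredoxin and Taldo1 an enzyme of the pentose phosphate pathway. Median CPM of Gpx4 was 26.0 in WT and 34.8 in KO oocytes, and 391 in WT and 171 in 2c embryos labelled matPlag1KO. Between 2c and 8c these were Prdx2 (1.58, adjusted p = 0.0466) and Nfe2l2 (2.77, adjusted p = 0.0146), each with a higher genotype difference at 2c. Median CPM of Nfe2l2 was 11.3 in WT and 33.8 in 2c embryos labelled matPlag1KO, and 33.4 and 8.05 at 8c. Groups held more than 10 libraries, so single outlying libraries were not sought.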

How the results depend on the processing

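The number of the 10 genes called between genotypes was small and moved easily. At MII (1 called) it was 0 with spike-in totals, with no filter, without libraries under 100000 counts and with the pool as a term, and 2 on libB alone (Prdx2 and Txn1). At 2c (1) it was 0 with spike-in totals, without libraries under 100000 counts, on libA alone and with median-ratio factors. At 8c (1) it was 0 with DESeq2, spike-in totals, no filter, low libraries kept, libA alone, libB alone and median-ratio factors. Refits without each library in turn gave 0 to 1 at each stage. The interaction of 2c against MII (1) gave 2 with DESeq2 and 3 on libB alone. It gave 0 with spike-in totals, without libraries under 100000 counts and on libA alone. With median-ratio factors it gave 1, but this was Prdx2 and not Prdx3. The interaction of 2c against 8c (1) gave 0 with spike-in totals, no filter, without libraries under 100000 counts and on either pool alone. From MII to 2c in WT, TMM factors gave 4 calls in place of 8, and 3 were shared. Among called values signs turned for Txn1 from MII to 2c in WT (0.13 with TMM factors, 0.98 on libB alone) and for Prdx2 from MII to 2c in the knockout series (0.72 with TMM factors). Uncalled values also turned, 0 to 2 in each stage comparison and 2 to 15 in each comparison between genotypes or interaction. In the 6 stage comparisons, 68 to 77 of the 80 values per comparison kept direction and side of the threshold. Pools run alone use fewer libraries. The causes of these changes were not tested, for the pools or for the other settings.

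Counts over all genes moved by over 1.5 times in some settings: from 129 to 70 (DESeq2), 463 (libB) and 792 (position block) at MII, from 812 to 285 (spike-in totals), 502 (libB) and 0 (edgeR, libA, 1339 genes with an unadjusted p under 0.05) at 2c, and from 287 to 106 (spike-in totals), 6 (libA) and 46 (libB) at 8c. The interactions fell from 546 to 312 (spike-in totals) and 39 (libA), and from 380 to 92 (spike-in totals), 170 (libB) and 0 (edgeR, libA, 1341 genes with an unadjusted p under 0.05). The stage counts ran from 10800 to 6961 (libB) for MII to 2c in WT, and on libA from 7950 to 4026 for 2c to 8c in WT and from 8025 to 4306 in the knockout series.

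In oocytes the same position label in libA and libB held opposite genotypes in 14 pairs. Deviations from group means correlated above 0.1 in 12 of 14 pairs (lowest -0.04), and in 14 of 14 when means were taken per group and pool (lowest 0.14), as a hint from the data. When oocytes alone were fitted with a replicate block for the position and a pool term, 2 of the 10 genes were called, Prdx2 (-0.57, adjusted p = 6.05e-05, edgeR) and Txn1 (1.30, adjusted p = 4.56e-06, edgeR), and Prdx4 was not (-2.50, adjusted p = 0.202, edgeR). Of all 12978 genes tested in that fit, 639 were called higher and 153 lower, so many genes besides these were called. At 2c the position shared by the pools held opposite genotypes in 2 of 8 pairs, and at 8c in 0 of 12, and no block was fitted. With means per group and pool, 5 of 8 pairs at 2c and 11 of 12 at 8c correlated above 0.1. At 8c no position label was shared by the genotypes, so genotype and position cannot be told apart.

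Depth limits Cat, Prdx3 at 2c and Prdx4 in oocytes, which rest on 2 to 51 counts per group.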
